A study of Arabidopsis thaliana with 14 samples.

Results

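WRKY6 (locus AT1G62300 on chromosome 1) is a WRKY transcription factor of Arabidopsis thaliana, described here from the 1 probe set that names it, among the 22746 probe sets of the ATH1 array that are not array controls. It was taken by gene name, with earlier results of these data known, from 13350 genes with a probe set that names a single gene. Root RNA of 12-day-old plants (ecotype Col-0) was read on 14 arrays, after 10 days on medium with 100 µM boron followed by 2 days at 0.3 or 100 µM boric acid. Each of 7 genotypes has 1 array at each boron level, namely nip5;1, nip5;1 bor1, nip5;1 bor2 and nip5;1 nip6;1 (together the channel mutants, with each double mutant written by its added gene, for example the nip6;1 double mutant), and bor1, bor2 and wild type, which have the channel gene NIP5;1 intact. NIP5;1 and NIP6;1 are boric acid channels, and BOR1 and BOR2 are borate exporters. The labels give all 4 channel mutants impaired root and shoot growth when boron is limiting, and do not say how many plants went into an array. The arrays count as replicates of a boron level only across genotypes, so the p-values below measure the spread between genotypes.

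WRKY proteins are plant transcription factors named for a conserved amino acid motif in their DNA-binding domain, which recognises the W-box element of promoters. WRKY6 belongs to group IIb of the family and is known from leaf senescence, pathogen defence and phosphate supply, where it represses the phosphate exporter gene PHO1. In Arabidopsis roots it is also known to be needed for normal growth when boron is scarce.

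The values are MAS5 signals, a brightness summary of each probe set on a linear scale, with the same trimmed mean on every array. Array medians ran from 194 to 204 signal units. The bor2 array at 0.3 µM stood apart, with a median Spearman correlation to the other arrays of 0.946, against 0.962 to 0.978 for the other 13. Of 16 root markers 2 had a named probe set, both bright, with PYK10, a glucosidase of the root, at 18571 signal units at 0.3 µM and 18657 at 100 µM on average, and the root hair expansin EXPA7 at 1120 at 0.3 µM and 1028 at 100 µM. Of 15 shoot markers 3 were named (LHCB4.1, RCA and SBPASE), and their summed signal ran from 972 to 2825 at 0.3 µM and from 1364 to 2421 at 100 µM, with the highest sum on the bor2 array at 0.3 µM. The GAPDH control signals, whose 3′ to 5′ ratio tracks RNA integrity, gave a ratio of 1.68 ± 0.167 (SD, n = 7) at 0.3 µM, against 1.44 ± 0.201 (n = 7) at 100 µM, and it was higher at 0.3 µM in 5 of 7 genotypes. The same ratio was far larger for the actin controls, at 14.3 ± 3.2 at 0.3 µM and 12.5 ± 3.24 at 100 µM, and was 2.88 ± 0.204 at 0.3 µM and 2.82 ± 0.202 at 100 µM for the ubiquitin controls (SD, n = 7 each).

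WRKY6 was higher at low than at sufficient boron in every genotype, and its lowest signal at 0.3 µM lay above its highest at 100 µM. Among the channel mutants, the single mutant had 480 signal units at 0.3 µM, against 379 at 100 µM. The bor1 double mutant had 549 at 0.3 µM, against 383 at 100 µM. The bor2 double mutant had 473 at 0.3 µM, against 338 at 100 µM. The nip6;1 double mutant had 439 at 0.3 µM, against 304 at 100 µM, both the lowest of their boron level. Each channel mutant read brighter at 0.3 µM than any of them did at 100 µM.

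The intact genotypes were more uneven. The bor1 single mutant had 445 signal units at 0.3 µM, against 431 at 100 µM. The bor2 single mutant had 642 at 0.3 µM, against 369 at 100 µM. Wild type had 444 at 0.3 µM, against 374 at 100 µM. Thus bor2 at 0.3 µM carried the highest signal of all 14 arrays, on the array that stood apart, while bor1 carried the highest signal of any array at 100 µM and the smallest step between the boron levels.

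**Figure D1:**
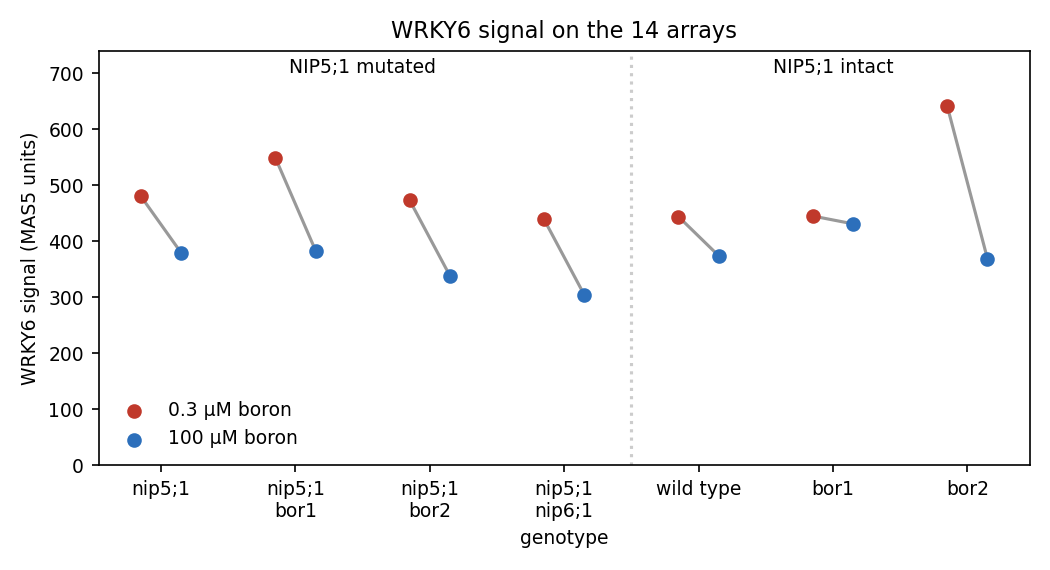
WRKY6 signal in MAS5 units for each genotype at 0.3 µM (red) and 100 µM boron (blue), 1 array per point, with a line joining the arrays of a genotype. All 7 lines fall toward 100 µM, and the 0.3 µM points (439 to 642) do not overlap with the 100 µM points (304 to 431).

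Over all 7 genotypes WRKY6 averaged 496 ± 74.5 signal units at 0.3 µM and 368 ± 39.5 at 100 µM (SD, n = 7 each). It was 1.34-fold higher at low boron (log2 0.42, SE 0.09, 95% confidence interval 0.23 to 0.61, limma adjusted p = 0.0271 over 13647 tested probe sets), with the direction shared by 7 of 7 genotypes. At the same threshold 1.95% of tested probe sets were called higher at low boron. An exact two-sided sign-flip permutation test of the 7 responses gave p = 0.0156, the smallest that 7 pairs allow. Any gene with 7 responses of the same sign gets this p, so it adds nothing to the shared direction. Of all tested probe sets 3.77% were likewise higher at low boron in all 7 genotypes. In whole roots a higher signal can come from more RNA per cell or from more cells of an expressing type, and these cannot be told apart.

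The call ended with no filter on dim probe sets (adjusted p = 0.107), with the GAPDH ratio as a covariate (log2 0.33, SE 0.12, adjusted p = 0.353) and without nip5;1 (0.0731) or any 1 of the double mutants with bor1 (0.0720), bor2 (0.0736) or nip6;1 (0.0712), in a range of 0.0209 to 0.353 over all 14 alternatives. It held without bor2, whose array stood apart (log2 0.36, SE 0.08, adjusted p = 0.0364), and without bor1 (0.49) or wild type (0.45).

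**Figure D2:**
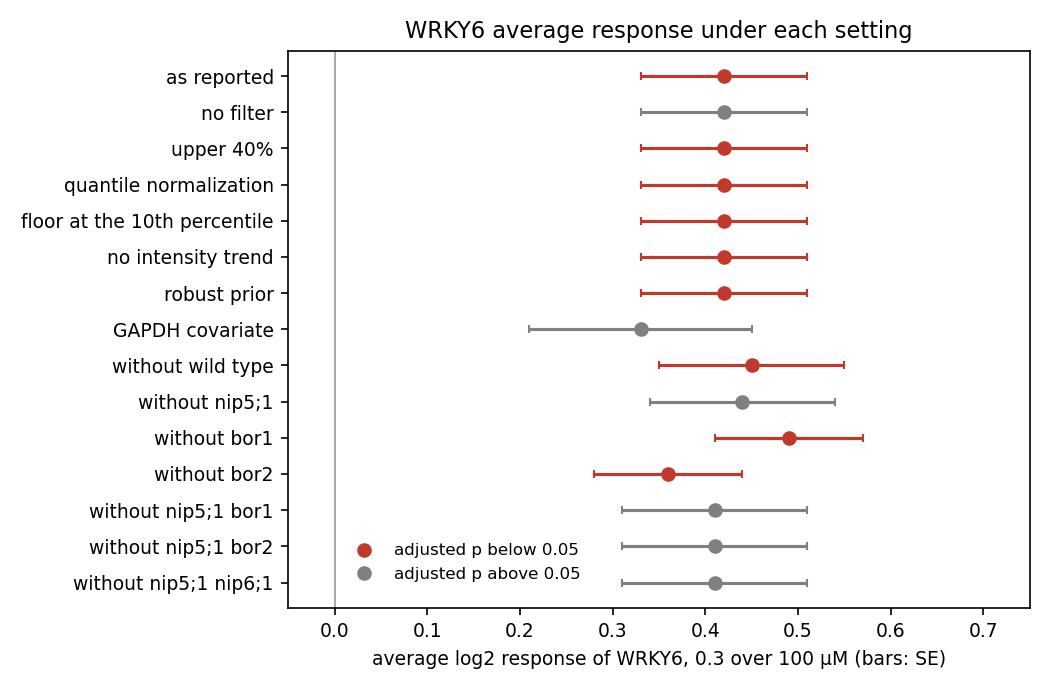
Average log2 response of WRKY6 (0.3 over 100 µM boron) as reported and under each alternative setting, with SE as bars and colour for the limma adjusted p. The estimate ran from 0.33 to 0.49, and grey settings had an adjusted p above 0.05.

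The rise was of modest size among those called. Of the 266 probe sets called higher at low boron, whose median response was 0.52, 87 had a smaller response than WRKY6. Its average response stood at the 97.6 percentile of all tested probe sets, whose median was -3.9e-03, and by p it was the 230th. Of all tested probe sets 3.77% were higher at low boron in all 7 genotypes, and for 0.586% all arrays at 0.3 µM lay above all arrays at 100 µM, as they did for WRKY6.

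The 14 levels in order showed no wide gap. The residual SD of an array in the fit was 0.16 log2 units, so that a difference between any 2 arrays has an SE of 0.23. None of the 13 steps between neighbours in the order was larger than 0.23. Sorting alone makes such steps small, so they cannot tell whether the boron levels form separate groups. The nip6;1 double mutant at 0.3 µM and bor1 at 100 µM were 0.02 apart where the boron levels meet. The whole range, from bor2 at 0.3 µM down to the nip6;1 double mutant at 100 µM, was 1.08.

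Set against all responses of the same genotype, WRKY6 stood highest in bor2 and lowest in bor1, with wild type next below the channel mutants. In the channel mutants its log2 response was 0.34 in nip5;1, 0.52 in the bor1 double mutant, 0.48 in the bor2 double mutant and 0.53 in the nip6;1 double mutant, between the 92.3 and 94.9 percentile of the tested probe sets of each genotype. The response was 0.05 in bor1 (58.2 percentile), 0.80 in bor2 (96.6 percentile) and 0.25 in wild type (87.3 percentile). The SD of all responses was larger in bor2 (0.40) than in bor1 (0.30) or wild type (0.29). WRKY6 lay 2.08 of these SDs above the median in bor2, against 0.91 in wild type and 0.157 in bor1. In the channel mutants this distance ran from 1.07 SDs in nip5;1, close to wild type, to 1.34 in the nip6;1 double mutant.

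Whether loss of the channel altered the response of WRKY6 was asked with a boron term for each class. In the 4 channel mutants WRKY6 averaged 485 ± 46.0 signal units at 0.3 µM and 351 ± 37.3 at 100 µM (SD, n = 4 each), and it rose by 0.47 (SE 0.12, 95% confidence interval 0.21 to 0.73, limma adjusted p = 0.0460, higher in 4 of 4), where 2.85% of tested probe sets were called higher. In the 3 intact genotypes it averaged 510 ± 114 at 0.3 µM and 391 ± 34.6 at 100 µM (n = 3 each), a difference of 0.36 (SE 0.14, 95% confidence interval 0.06 to 0.66, adjusted p = 0.497, higher in 3 of 3), where 0.103% were called higher. By p WRKY6 stood 600th among the tested probe sets in the intact genotypes and 676th in the channel mutants, although it was called in the mutants alone. Without bor2 the difference in the intact genotypes was 0.15 (limma adjusted p = 0.969, in a range of 0.379 to 0.969 over all alternatives). The responses spread from 0.34 to 0.53 among the mutants and from 0.05 to 0.80 among the intact genotypes.

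The difference between the 2 classes of responses was 0.10 (SE 0.18, 95% confidence interval -0.29 to 0.50, limma adjusted p = 0.970, exact two-sided permutation p = 0.6 over 35 splits, with 0.0286 the smallest possible). Of all tested probe sets 0.11% were called for this difference. The sign of this difference was negative without bor1 (-0.06). The call in the channel mutants lay close to the threshold and ended in 4 of 7 other settings, such as the upper 40% of probe sets (adjusted p = 0.0532) or the GAPDH covariate (0.38, adjusted p = 0.317), and without any 1 of the 4 mutants or wild type (0.0689 to 0.179), in a range of 0.0125 to 0.317 over all alternatives.

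At a given boron level the classes overlapped. At 0.3 µM the channel mutants had a log2 difference of -0.06 from the intact genotypes (SE 0.14, 95% confidence interval -0.35 to 0.23, limma adjusted p = 0.905), and at 100 µM of -0.16 (SE 0.14, 95% confidence interval -0.45 to 0.13, adjusted p = 1). Without bor2 the difference at 0.3 µM had the opposite sign (0.12, adjusted p = 0.726). Of all tested probe sets 0.989% were called between the classes at 0.3 µM and 0 at 100 µM by limma. At 100 µM 384 of 13647 had an unadjusted p under 0.05, fewer than evenly spread p-values would give.

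Second mutations were set against the matched background without them, 1 array against 1. At 0.3 µM WRKY6 was 0.53 log2 units higher in the bor2 single mutant than in wild type but differed by -0.02 between the bor2 double mutant and nip5;1, while bor1 against wild type gave 2.9e-03 and the bor1 double mutant against nip5;1 gave 0.19. At 100 µM the nip6;1 mutation went with -0.32 relative to nip5;1 alone, and at 0.3 µM with -0.13. Beside the SE of 0.23 for 2 arrays, none of these single pairs has a replicate check.

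Other WRKY genes could be compared for a small share of the family. The RefSeq gene table lists 67 WRKY genes, 6 of which had a probe set that names 1 gene here, and 4 of these were bright enough to be tested. WRKY6 itself was the 1 member called higher in the average response, and 0 were called lower, beside 1.95% and 1.82% of all tested probe sets. The median response of the 4 tested, WRKY6 among them, was 0.27, against -3.9e-03 over all tested probe sets. No tested member besides WRKY6 was called, so this median does not show a rise of the family.

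WRKY47, a member of group IIb like WRKY6, had 225, 253 and 291 signal units at 0.3 µM and 179, 240 and 272 at 100 µM (lowest, median and highest of 7 arrays), so its boron levels overlapped. Its average response was 0.13 (SE 0.11, limma adjusted p = 0.543), higher in 4 of 7 genotypes. WRKY42, also of group IIb and known to repress PHO1 together with WRKY6, was at or under the floor of 20 signal units on 5 of 7 arrays at 0.3 µM and on all 7 at 100 µM, and no fold is given. Its brightest arrays were nip5;1 (33.3) and the bor2 double mutant (30.8), both at 0.3 µM.

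WRKY20, also tested, was higher at low boron in every genotype except wild type. It had 309, 337 and 368 signal units at 0.3 µM and 277, 291 and 329 at 100 µM (lowest, median and highest), with wild type the lowest at 0.3 µM and the highest at 100 µM. Its average response was 0.22 (SE 0.08, limma adjusted p = 0.142, higher in 6 of 7 genotypes), with 0.32 in the channel mutants (SE 0.09, adjusted p = 0.0772) and 0.07 in the intact genotypes (SE 0.11, adjusted p = 0.904). The difference between these class responses was 0.25 and was not called (SE 0.14, limma adjusted p = 0.767).

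WRKY53, a regulator of leaf senescence and defence, was dominated by 1 array. On the bor2 array at 0.3 µM it had 987 signal units, against 141 in bor2 at 100 µM, while the other 6 genotypes had 160 to 269 at 0.3 µM and 180 to 334 at 100 µM. The average response was 0.32 (SE 0.32, limma adjusted p = 0.625), and -0.09 without bor2. WRKY22, of immune signalling and too dim on average to be tested, also had its largest response in bor2 (0.79), next to nip5;1 (0.72), and ran down to -0.55 in the bor2 double mutant.

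The largest response of WRKY6, WRKY22, WRKY47 and WRKY53 thus fell in bor2, which is 4 of the 6 named WRKY probe sets, against 15% of all tested probe sets. On the same bor2 array at 0.3 µM the shoot markers RCA, the activase of rubisco, and LHCB4.1, a light-harvesting protein, read 1242 and 1439 signal units, against 297 to 644 and 585 to 1287 on the other 6 arrays at 0.3 µM. In the other 6 genotypes LHCB4.1 was lower at 0.3 µM than at 100 µM, so that without bor2 it was called lower on average (log2 -0.40, SE 0.09, limma adjusted p = 0.0344), against -0.25 (SE 0.13, adjusted p = 0.331) over all 7. RCA averaged -0.19 without bor2 (adjusted p = 0.252). The part of these markers in the response of WRKY6 was not tested. The average response of WRKY6 without bor2 is given above.

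**Figure D3:**
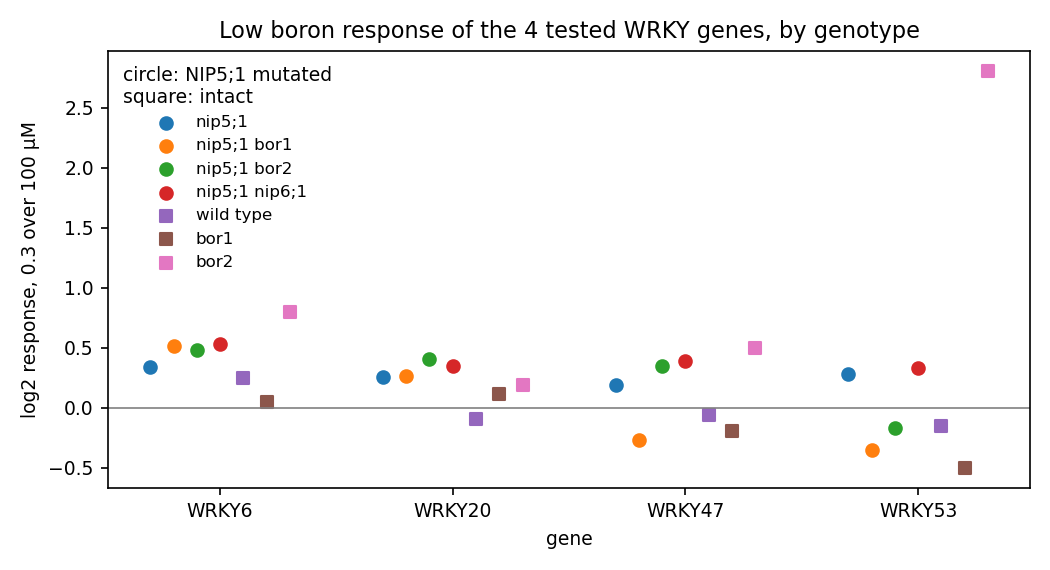
Log2 response (0.3 over 100 µM boron) of the 4 tested WRKY genes, 1 point per genotype, circles for channel mutants and squares for intact genotypes. All 7 WRKY6 points lie above 0, and the bor2 point of WRKY53, at 2.81, stands far above its others.

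Few genes tied to the known roles of WRKY6 had a named probe set. Of 6 reported targets and partners WRKY42 alone was named, and of the lists for phosphate (27 genes), abscisic acid (18) and jasmonate and wounding (18) none was. Of 18 senescence genes 4 were named and 3 tested. In the average response 0 of these were called higher and 1 lower, beside 1.95% and 1.82% of all tested probe sets. Their median of 0.32 is the response of WRKY53, which was -0.09 without bor2. Of 25 defence genes 2 were named and 1 tested, which did not pass.

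The member called lower was APG8A, an ATG8 protein of autophagosome formation. It averaged 2756 signal units at 0.3 µM and 3363 at 100 µM, lower at 0.3 µM in every genotype except wild type, where it read 3075 against 3013. Its average response was -0.29 (limma adjusted p = 0.0425), where 1.82% of tested probe sets were called lower. It no longer passed in 9 of 14 alternatives, among them no filter (0.131), the GAPDH covariate (0.521) and the omission of any genotype except wild type.

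SAG101, a lipase-like partner of EDS1 in immunity, and BIK1, a cytoplasmic kinase downstream of immune receptors, were each higher at low boron in 6 of 7 genotypes, with bor1 as the exception. SAG101 averaged 178 signal units at 0.3 µM and 132 at 100 µM (log2 0.44, limma adjusted p = 0.110). BIK1 averaged 750 at 0.3 µM and 589 at 100 µM (log2 0.34, adjusted p = 0.123). Without bor1, the genotype that went the other way, both passed (0.57, limma adjusted p = 0.0348, and 0.43, adjusted p = 0.0497). Leaving out the 1 genotype of opposite sign raises the average by construction, so this is no separate support. Neither gene passed under any other setting run. There the limma adjusted p ran from 0.103 to 0.563 for SAG101 and from 0.115 to 0.707 for BIK1.

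Among genes whose symbol marks them as transcription factors of any family (WRKY, MYB, NAC, bHLH, bZIP and others), 74 had a named probe set and 28 were tested. In the average response 1 rose, which was WRKY6, and 1 fell, beside the 1.95% of all tested probe sets called higher and 1.82% called lower. The median response of the 28 was 0.01.

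The genes whose 7 responses follow that of WRKY6 were ranked by Pearson correlation over the 7 genotypes, among 4467 tested genes with a named probe set and an SD of responses of at least 0.2. This ranking is a description over 7 points that share 14 arrays. The median r was -0.03, 17 genes had an r of at least 0.9 and 9 an r of at most -0.9. All 10 genes with the highest r (0.93 to 0.96) had their largest response in bor2, as did 16.8% of the 4467. WRKY6 itself had its largest response there, so the choice by r favours such genes and this is no separate result. Just outside the 10, the next gene had an r of 0.93.

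Of these 10, AT1G21010 alone was also close to WRKY6 in size. Its signal was 267, 313 and 534 at 0.3 µM and 209, 241 and 264 at 100 µM (lowest, median and highest of 7 arrays), with the highest value again in bor2 at 0.3 µM. Its responses were 0.36, 0.62, 0.57 and 0.37 in nip5;1, the bor1 double mutant, the bor2 double mutant and the nip6;1 double mutant, and 0.02, 1.06 and 0.10 in bor1, bor2 and wild type. They differed from those of WRKY6 by a root mean square of 0.14 log2 units, with an r of 0.94, of 0.90 without bor2 and of 0.86 over the 14 log2 signals.

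UGT73D1, a UDP-glycosyltransferase, was the next in size, with responses from -0.35 in bor1 to 1.15 in bor2, a mean of 0.38 and an r of 0.94. The other 8 (AT2G04620, AT5G37590, AT5G49780, AT5G13200, SEC1B, AT1G78780, AT1G29020 and AT1G64460) followed the ups and downs between genotypes but not the level, with mean responses from -0.27 to 0.03, and negative values in bor1 and wild type for each. None of the 10 is a transcription factor by symbol, but just 13 of the 4467 ranked genes are, so this does not set the 10 apart.

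The genes with the lowest r were AT1G73440 (-0.98), AT1G26520 and AT3G48120 (-0.94 each), AT1G80630 (-0.94) and AT2G27480 (-0.93). AT1G73440 had responses of -0.58 in bor2 and -0.36 in the bor1 double mutant, where WRKY6 was among its highest, and 0.11 in bor1, where WRKY6 was lowest. All 5 had their lowest response in bor2, from -1 in AT1G26520 to -0.38 in AT3G48120, which a choice by low r likewise favours.

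The ranking changed with the genotypes used, most of all without bor2. Of the 10 genes, 2 stayed among the 10 highest without nip5;1, 3 without bor1 and 7 without wild type. Without bor2, 0 of the 10 stayed among the 10 highest, although the 7 of them that kept an SD of 0.2 had an r from 0.87 to 0.93, and 44 genes then reached 0.9. The gene then highest, AT5G05570, had an r of 0.99 over 6 genotypes and 0.66 over 7. Ranked by root mean square difference in place of r, 1 of the 10 stayed, AT1G21010, which was also first by that measure, and BIK1 (0.20 log2 units) was the 10th.

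**Figure D4:**
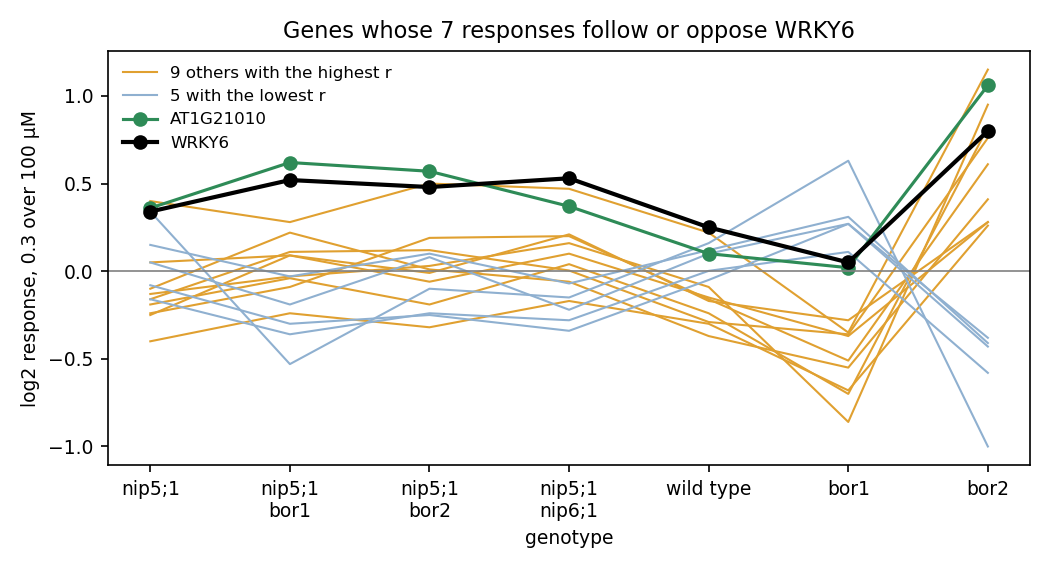
Log2 response (0.3 over 100 µM boron) in each genotype for WRKY6 (black), AT1G21010 (green), the other 9 genes with the highest correlation to WRKY6 (orange) and the 5 with the lowest (blue); lines only join the values of a gene. AT1G21010 runs beside WRKY6, most orange genes run below it, and the orange and blue genes part most widely in bor2.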

How the data were processed

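The authors deposited linear intensity values from MAS5, a tool named in the submitters' processing notes without version or settings, and no detection calls came with them. The 2% trimmed mean was 500.04 on each array. No further scaling was needed (factors of 1). Of 22810 probe sets 64 array controls were left out, and 13513 of the rest name 1 gene, 503 name several and 8730 are unlisted. Current symbols come from RefSeq's gene table (assembly TAIR10.1), which held 13436 of the genes named. No arrays held identical values. Precision is limited by the number of arrays.

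Values under the 20th percentile (20 signal units) were raised to that floor before log2. Tests covered the brightest 60% of probe sets by mean signal (at least 113), 13647 in all, and WRKY6 was never at the floor. Responses were fitted in R 4.3.3 with limma 3.58.1 and statmod 1.5.0, using eBayes with a trend on mean intensity. Tests were two-sided at a threshold of 0.05 after Benjamini-Hochberg adjustment across the 13647 probe sets. Genotype was a block for the average response (6 residual degrees of freedom) and for the fit with a boron term per class (5), and a random block where the classes were compared at one boron level (correlation 0.105). The fit of the average response was checked on simulated data with independent noise. The fits by class were not checked in this way. Python 3.11.15, numpy 2.4.6, pandas 2.3.3 and matplotlib 3.10.9 did the rest.

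Named genes were WRKY6, the named WRKY genes, members of the gene lists past the threshold (up to 4 a list) or given as values, and the 10 highest and 5 lowest correlations with WRKY6. WRKY6 and the lists were chosen with earlier results of these data known, and the set of transcription factor symbols after the annotation was seen. The result for 1 other transcription factor gene is not reported here. No probe set used here names a mutated gene, so the genotypes were not checked by name. Alternatives were no filter, the upper 40%, quantile normalization, a floor at the 10th percentile, no intensity trend, a robust prior, the GAPDH ratio as a covariate, each genotype left out, and other measures of likeness.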

Additional observations from a re-analysis of the deposited data

Results flagged for a closer look

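A single genotype stood apart from the others in 9 of 64 groups of values examined (Dixon's test), where chance flags about 5%. Of these, 4 concern the bor2 array at 0.3 µM. WRKY53 had a response of 2.81 in bor2, against 0.33 in the next genotype, and a signal of 987 there at 0.3 µM, against 269. RCA had a response of 1.44 in bor2, against 0.13 in the next, and a signal of 1242 at 0.3 µM, against 644. At 100 µM the nip6;1 double mutant was the highest for RCA (785, next 491) and for LHCB4.1 (1498, next 1067), and wild type for WRKY20 (329, next 295). Among the 4 channel mutants, EXPA7 had a response of 0.50 in the bor2 double mutant, against 0.10 in the next, and SBPASE one of -0.01 in nip5;1, against -0.61 in the next. WRKY6 itself had no such genotype.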

How the results depend on the processing

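WRKY6 was higher at low boron on average, in the channel mutants and in the intact genotypes under each of the 14 alternatives run. Leaving out 1 genotype at a time gave 0.36 to 0.49 on average, 0.45 to 0.51 in the channel mutants, -0.06 to 0.32 for the difference of the classes, and -0.14 to 0.12 between the classes at 0.3 µM. With no filter the average response stayed at 0.42 and the channel-mutant response at 0.47 (adjusted p = 0.107 and 0.164), where 22746 probe sets share the adjustment. With the GAPDH covariate they were 0.33 and 0.38, and the channel-mutant response was 0.47 with the upper 40% and with no intensity trend (adjusted p = 0.0532 and 0.0595). The 514 probe sets called on average became 13 with no filter, 333 with the upper 40%, 26 with the GAPDH covariate and 125 to 601 with a genotype left out, and the 1 WRKY gene called became 0 with no filter or the covariate and 0 to 1 with a genotype left out. Of the 10 genes most like WRKY6, 3 stayed by Spearman correlation, 1 over the 14 log2 signals, 1 by root mean square difference and 0 to 7 with a genotype left out. Signs of uncalled values turned for WRKY53 (-0.16), WRKY47 (-0.07) and RCA (-0.20) with the covariate, for WRKY53 (-0.09 to 0.46), RCA (-0.19 to 0.12) and PYK10 (-0.04 to 0.02) with a genotype left out, and for the correlation of AT2G04620 over 14 signals (-4.9e-03). Except where the alternative's own construction shows it (more or fewer probe sets, fewer arrays), the cause was not tested. The boron comparison is paired by genotype throughout, as the fits above have genotype as a block. No pairing by replicate number was tried, since every array carries the same number in the labels.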
